A study of Mus musculus with 17 samples.

Results

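The IL-6 family is described here by 9 genes over 17 RNA-seq libraries of mouse lung, of 45777 genes in the count table. The members were taken from the table by their symbols: the cytokine genes Il6, Il11, Lif and Osm, the receptor genes Il6ra, Il6st, Osmr and Lifr, and the feedback inhibitor gene Socs3. All 9 had counts in every library (at least 13 in each) and all 9 were among the 22052 genes that passed the filter on low counts. The mice were male wild-type C57BL/6, 6 weeks old when they began a week of acclimatisation, and the irradiated mice then received a single focal dose of 65 Gy or 75 Gy to the left lung with an image-guided small-animal irradiator. Lung was collected at 2 weeks, when this model shows pneumonitis, or at 6 weeks, when it shows fibrosis. The authors took the RNA of irradiated lungs from the lesions and name no region for the controls. The non-irradiated controls were libraries 3126, 3127 and 3128 at 2 weeks and 3135, 3136 and 3137 at 6 weeks. The 65 Gy group held 3129, 3130 and 3131 at 2 weeks and 3138 and 3140 at 6 weeks, and the 75 Gy group held 3132, 3133 and 3134 at 2 weeks and 3141, 3142 and 3143 at 6 weeks. The labels do not say that each library is a separate mouse, so p-values measure the spread between these libraries.

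Cytokines of the IL-6 family signal through receptor complexes that contain gp130, the protein of Il6st. Interleukin-6 binds the receptor encoded by Il6ra, which can also be shed in soluble form, before it engages gp130. Interleukin-11 has an alpha receptor of its own, LIF pairs gp130 with the receptor encoded by Lifr, and oncostatin M pairs it chiefly with the receptor encoded by Osmr in the mouse. The complexes activate JAK kinases and the transcription factor STAT3, and SOCS3, whose gene STAT3 induces, binds phosphorylated gp130 and dampens the signal. In lung the family takes part in acute phase responses, leukocyte recruitment, epithelial repair and fibroblast activation.

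Positions below are those of RefSeq on GRCm38.p6, the build the submitters name. Il6 (gene ID 16193) lies at chr5:30013114-30019975 on the plus strand and Il11 (16156) at chr7:4772373-4782907 on the minus strand. Osm (18413), at chr11:4236785-4241026, and Lif (16878), at chr11:4257568-4272514, are both on the plus strand of chromosome 11, and Socs3 (12702) is on its minus strand at chr11:117966079-117970336. Osmr (18414) and Lifr (16880) are both on chromosome 15, at chr15:6813568-6874968 on the minus strand and chr15:7090610-7197489 on the plus strand. Il6ra (16194) lies at chr3:89869324-89913196 on the minus strand and Il6st (16195) at chr13:112464070-112506860 on the plus strand.

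Sequence is shown for Il6, Lif and Socs3, the members called higher in all 4 comparisons of irradiated with control lung given below. RefSeq promoter windows were at hand for 8 of the 9 members, Osm being the exception, and the 250 bases before the annotated start were searched on both strands for the letters TTCNNNGAA (STAT), TGANTCA (AP-1), GGANTTTCC (NF-kB) and TTNNGCAA (C/EBP). Of 32851 promoter windows of the same length, 7.02% held the STAT letters, 6.75% the AP-1 letters, 1.07% the NF-kB letters and 9.56% the C/EBP letters. The first line gives all 250 bases before Il6 (chr5:30012864-30013113, plus strand). The second gives 230 of those before Lif (chr11:4257318-4257547, plus strand), and the third gives 29 bases around the match of Socs3 (chr11:117969502-117969530, minus strand). The window of Socs3 precedes a start that lies downstream of the outermost end of the gene, so this stretch is inside the span given for Socs3 above. All are written 5′ to 3′ with matches in capitals.
Il6: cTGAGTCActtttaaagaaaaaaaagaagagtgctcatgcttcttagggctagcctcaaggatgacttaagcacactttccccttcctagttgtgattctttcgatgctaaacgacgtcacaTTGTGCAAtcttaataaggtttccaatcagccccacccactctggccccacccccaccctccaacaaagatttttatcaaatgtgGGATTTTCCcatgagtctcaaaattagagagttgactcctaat
Lif: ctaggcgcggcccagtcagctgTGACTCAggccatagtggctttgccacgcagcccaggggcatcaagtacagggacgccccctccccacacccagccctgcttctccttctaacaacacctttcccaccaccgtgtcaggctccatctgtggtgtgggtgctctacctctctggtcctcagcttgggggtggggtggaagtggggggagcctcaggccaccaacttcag
Socs3: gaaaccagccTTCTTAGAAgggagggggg
The Il6 window held 1 match each to the AP-1, C/EBP and NF-kB letters, beginning at positions -249, -128 and -43 from the start. The Lif window held 1 match to AP-1 letters, at -228, and the Socs3 window held 1 match to STAT letters, at -154. The only other match among the members' windows was to the AP-1 letters before Il11, at -98 from the second of its annotated starts. A match describes the letters in the window and is not evidence of binding.

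The libraries held 46764569 to 66797879 counts on genes. Levels are given as CPM (the share of a library's counts, scaled to a common library size) after scaling of the libraries by TMM factors. Lung markers (Sftpc, Sftpb, Ager, Hopx, Scgb1a1, Foxj1, Cldn5 and Pecam1) summed to 18536 to 40095 CPM in every library, and markers of liver cells to at most 1.97 CPM. Summed CPM of 6 fibroblast markers overlapped, at 1200 to 2012 in controls and 1227 to 1921 in irradiated lung, but its genes moved in both directions. At 6 weeks the means of controls and of 75 Gy were 406 and 233 CPM for Pdgfra and 194 and 125 CPM for Pdgfrb. They were 158 and 279 CPM for Dcn and 9.76 and 21.5 CPM for Lum. For Col1a1 they were 206 and 247 CPM and for Col1a2 352 and 469 CPM. Marker sums of some other cell types differed with irradiation. Summed CPM of 7 macrophage and monocyte markers lay at 406 to 468 in controls and 706 to 1753 in irradiated lung, where library 3134 was the highest. Summed CPM of 7 neutrophil markers lay at 444 to 744 in controls and 134 to 357 in irradiated lung, and that of 5 endothelial markers (Pecam1, Cdh5, Kdr, Cldn5 and Tek) at 3014 to 3410 and 1271 to 2303. Sums of 5 alveolar macrophage markers and of 5 T cell markers overlapped at 2 weeks. At 6 weeks they lay at 384 to 523 and 35.7 to 56.7 CPM in controls and at 1265 to 1951 and 64.8 to 78.4 CPM in irradiated lung. In tissue of mixed cell types, fewer cells of a type and less RNA per cell cannot be told apart. Because the irradiated RNA came from lesions, a difference in the region sampled cannot be told apart from an effect of dose either. This holds for all comparisons with controls below.

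Among the cytokines, Il6 and Lif rose after both doses at both times, and these were the largest differences of any member. Il6, which encodes the cytokine that gives the family its name, stood at 1.36, 0.278 and 0.381 CPM in the 2-week controls and at 1.14, 0.998 and 0.576 CPM in the 6-week controls. It was at 5.23, 4.01 and 2.15 CPM after 65 Gy and 6.60, 3.59 and 4.71 CPM after 75 Gy at 2 weeks. It was at 1.98 and 5.84 CPM after 65 Gy and 7.56, 12.3 and 15.5 CPM after 75 Gy at 6 weeks. No irradiated library overlapped the controls of its time, and the 3 libraries of 75 Gy at 6 weeks were the highest of the 17. The difference from controls, as a log2 fold change with its standard error, was 2.49 ± 0.56 after 65 Gy (quasi-likelihood test of edgeR, Benjamini-Hochberg adjusted p = 0.0108) and 2.88 ± 0.56 after 75 Gy (adjusted p = 0.00223) at 2 weeks. At 6 weeks it was 2.11 ± 0.58 after 65 Gy (edgeR adjusted p = 0.0247) and 3.70 ± 0.56 after 75 Gy (adjusted p = 0.000218), the last a 13.0-fold difference. The 2-week values were larger without control library 3126, at 3.52 after 65 Gy and 3.91 after 75 Gy. The size of the 65 Gy difference at 6 weeks depended on library 3140, without which the log2 fold change was 1.14. Without control library 3135, 3136 or 3137 it was 2.31, 2.18 or 1.87. In these 3 fits the edgeR adjusted p was above the threshold, at 0.0504, 0.0647 or 0.0862.

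Lif, which encodes leukaemia inhibitory factor, was higher in all 11 irradiated libraries. It stood at 5.50, 4.20 and 5.66 CPM in the 2-week controls and at 3.97, 2.00 and 2.23 CPM in the 6-week controls. It was at 39.6, 16.5 and 16.0 CPM after 65 Gy and 20.7, 26.2 and 31.5 CPM after 75 Gy at 2 weeks, and at 21.5 and 25.6 CPM after 65 Gy and 20.6, 25.0 and 28.2 CPM after 75 Gy at 6 weeks. Every irradiated library was above every control of either time. The log2 fold changes were 2.23 ± 0.33 after 65 Gy and 2.35 ± 0.33 after 75 Gy at 2 weeks (edgeR adjusted p = 0.000619 and 0.000257). They were 3.10 ± 0.37 and 3.16 ± 0.35 at 6 weeks (edgeR adjusted p = 9.87e-05 and 2.09e-05), an 8.57-fold and an 8.96-fold difference. Lif levels of the irradiated groups had means of 23.5 to 26.1 CPM, and the controls of 6 weeks had a lower mean (2.73 ± 1.08 CPM, SD, n = 3) than those of 2 weeks (5.12 ± 0.80 CPM, SD, n = 3).

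Osm, which encodes oncostatin M, a product chiefly of myeloid cells, passed the test at 6 weeks after 75 Gy alone. It stood at 7.27, 6.10 and 4.0 CPM in the 2-week controls, at 11.3, 8.88 and 9.28 CPM after 65 Gy and at 4.59, 7.74 and 16.5 CPM after 75 Gy. At 6 weeks it stood at 5.94, 4.30 and 2.76 CPM in controls, 6.53 and 11.1 CPM after 65 Gy and 8.15, 9.16 and 11.0 CPM after 75 Gy. Only 75 Gy at 2 weeks overlapped its controls. The log2 fold change was 1.12 ± 0.39 after 75 Gy at 6 weeks (edgeR adjusted p = 0.0352), a 2.17-fold rise, and it missed the adjusted p threshold without library 3142, 3143, 3136 or 3137 (0.068 to 0.131). In the other 3 comparisons it was 0.73 (95% interval -0.09 to 1.55) after 75 Gy and 0.76 (-0.06 to 1.58) after 65 Gy at 2 weeks, and 1.03 (0.12 to 1.93) after 65 Gy at 6 weeks, with edgeR adjusted p of 0.191, 0.235 and 0.118. The 2-week value after 75 Gy was decided by library 3134, which also had the highest macrophage marker sum: without it the log2 fold change was 0.09, and without library 3132 it was 1.06 (edgeR adjusted p = 0.042). In the fit without library 3134 the 65 Gy difference at 6 weeks, still 1.03, passed (edgeR adjusted p = 0.0383). The part of the macrophages in the Osm values was not tested.

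Il11, which encodes a cytokine produced by stromal and epithelial cells, was the least abundant cytokine of the set in irradiated lung and passed no comparison. Its levels lay between 0.467 and 0.839 CPM in controls and between 0.574 and 1.49 CPM in irradiated lung (23 to 85 counts per library). After 75 Gy at 2 weeks, at 0.928, 0.931 and 1.49 CPM, it was above every control, and the other irradiated groups overlapped the controls of their time. The log2 fold changes were 0.30 and 0.64 at 2 weeks (65 and 75 Gy) and 0.71 and 0.74 at 6 weeks (65 and 75 Gy), with edgeR adjusted p between 0.106 and 0.639. In 3 of the 4 comparisons the 95% interval held both 0 and 1, so that no change and a doubling of Il11 could not be told apart at this depth, and after 75 Gy at 6 weeks it reached from 0.01 to 1.47.

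**Figure D1:**
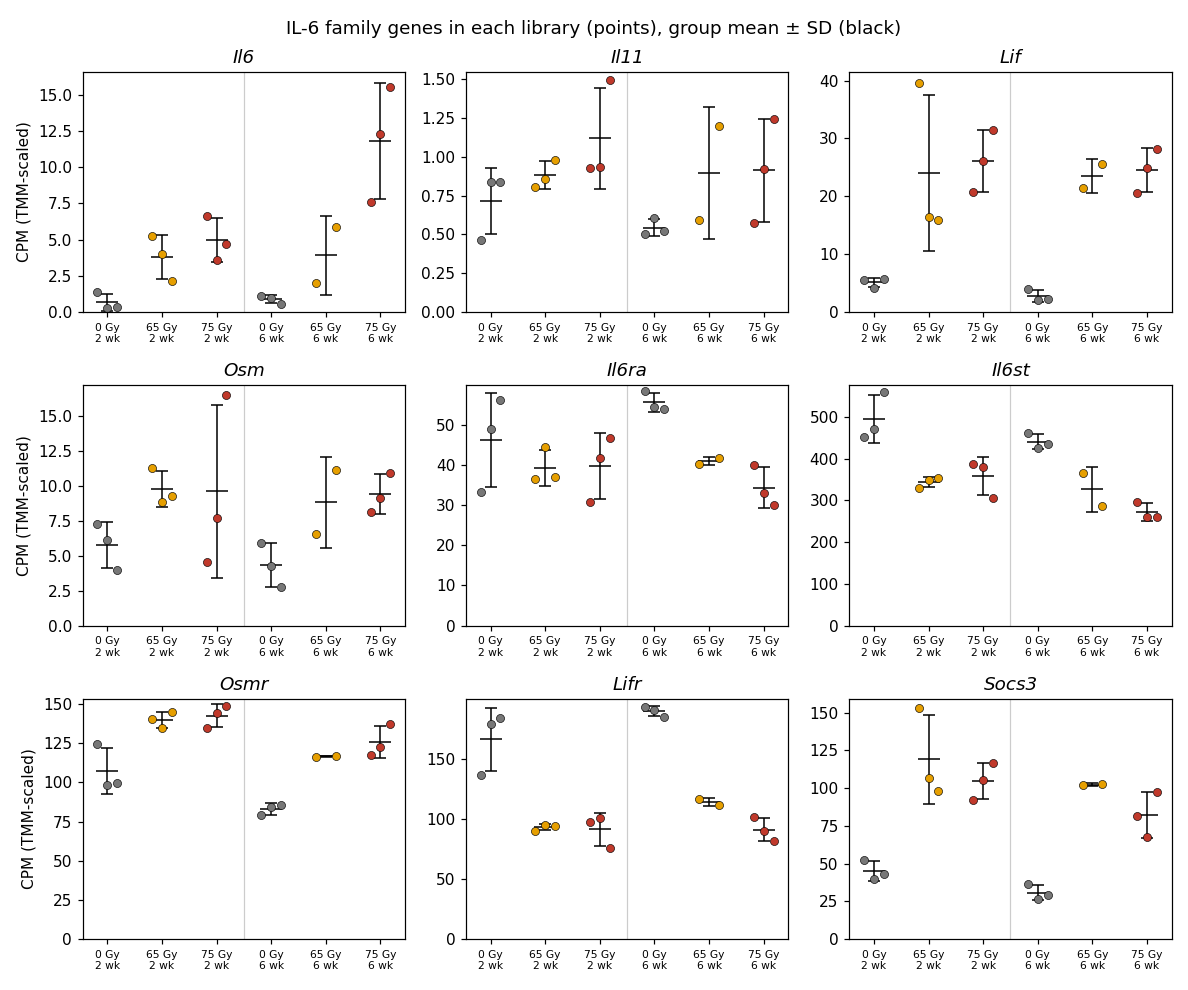
Level of each of the 9 genes in each library (points), in TMM-scaled CPM on a linear axis from 0, by dose and time (0 Gy is the control), with the group mean and SD in black. For Il6, Lif and Socs3 the irradiated points lie above the control points of their time, and for Lifr and Il6st they lie below them.

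The receptor genes moved less than Il6 and Lif, and not all in the same direction. Lifr, the gene of the LIF receptor subunit, fell in all 4 comparisons. It stood at 136, 179 and 183 CPM in the 2-week controls, at 89.9, 94.7 and 94.4 CPM after 65 Gy and at 97.6, 101 and 75.5 CPM after 75 Gy. At 6 weeks it stood at 193, 190 and 185 CPM in controls, 116 and 111 CPM after 65 Gy and 101, 89.9 and 81.9 CPM after 75 Gy. Every irradiated library was below every control. The log2 fold changes were -0.84 ± 0.12 and -0.86 ± 0.12 at 2 weeks and -0.74 ± 0.14 and -1.06 ± 0.12 at 6 weeks (65 then 75 Gy at each time), with edgeR adjusted p of 0.000541, 0.000258, 0.00342 and 3.25e-05. The last alone reached a change of 1 on the log2 scale (0.481 of the control level), and without library 3143 it was -0.97.

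Il6st, the gene of the shared subunit gp130, fell less but also in all 4 comparisons. It stood at 451 to 560 CPM in the 2-week controls, 330 to 353 CPM after 65 Gy and 305 to 387 CPM after 75 Gy. At 6 weeks it stood at 425 to 460 CPM in controls, 287 and 365 CPM after 65 Gy and 260 to 296 CPM after 75 Gy, with no overlap at either time. The log2 fold changes were -0.53 ± 0.12 and -0.47 ± 0.12 at 2 weeks and -0.43 ± 0.13 and -0.69 ± 0.12 at 6 weeks (65 then 75 Gy at each time) (edgeR adjusted p = 0.00997, 0.00962, 0.0386 and 0.000458). The 65 Gy value at 6 weeks was the weakest of them, at -0.26 without library 3140 (edgeR adjusted p = 0.379), and it missed the threshold in 8 of the 17 fits that left out a library, with no filter except 1 count (edgeR adjusted p = 0.0702) and with upper-quartile factors (0.0529). The 75 Gy value at 2 weeks missed it with only the groups compared in the fit (edgeR adjusted p = 0.123) and without library 3128 (0.0509). The endothelial marker sum moved in the same direction as Lifr and Il6st: all 5 of its genes passed the adjusted p as lower in 3 of the 4 comparisons and 2 of 5 after 65 Gy at 2 weeks, with median log2 fold changes from -0.51 to -1.40. The part of the endothelial cells in these receptor values was not tested.

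Il6ra, the gene of the interleukin-6 binding subunit, passed after 75 Gy at 6 weeks by adjusted p alone and was not called. At that time it stood at 58.4, 54.6 and 54.0 CPM in controls, 40.3 and 41.7 CPM after 65 Gy and 40.0, 33.1 and 30.1 CPM after 75 Gy. The groups did not overlap, and the log2 fold change was -0.69 ± 0.18 after 75 Gy (edgeR adjusted p = 0.00721) and -0.44 ± 0.20 after 65 Gy (adjusted p = 0.153). At 2 weeks the controls were spread from 33.3 to 56.3 CPM and enclosed most irradiated libraries (30.8 to 46.7 CPM), with log2 fold changes of -0.23 and -0.22 after 65 and 75 Gy (edgeR adjusted p = 0.456 and 0.419). Neutrophils also carry this receptor, and of their 7 markers 6 were called lower at 2 weeks and 2 at 6 weeks after either dose, whose part in the Il6ra values was not tested.

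Osmr, the gene of the oncostatin M receptor subunit, was the one receptor gene that rose. It stood at 124, 98.5 and 99.6 CPM in the 2-week controls and 79.0, 84.1 and 85.8 CPM in the 6-week controls. It was at 135 to 145 CPM after 65 Gy and 135 to 149 CPM after 75 Gy at 2 weeks, and at 116 and 117 CPM after 65 Gy and 117 to 137 CPM after 75 Gy at 6 weeks. The groups did not overlap at either time. The log2 fold changes were 0.38 ± 0.09 and 0.41 ± 0.09 at 2 weeks and 0.49 ± 0.10 and 0.60 ± 0.09 at 6 weeks (65 then 75 Gy at each time) (edgeR adjusted p = 0.0165, 0.00564, 0.0063 and 0.000269), all below a doubling. With only the groups compared in the fit, the 2-week values missed the threshold (edgeR adjusted p = 0.084 after 65 Gy and 0.122 after 75 Gy). The 65 Gy values also missed it in 4 of 17 fits that left out a library at 2 weeks and in 2 of 17 at 6 weeks, with edgeR adjusted p of at most 0.0742.

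Because Osmr was higher and Lifr lower, the order of these receptor genes changed. Per kilobase of exon, using the union of all annotated exons of each gene, the ratio of Osmr to Lifr had a median of 0.448 in the 6 controls (0.364 to 0.813) and of 1.27 in the 11 irradiated libraries (0.892 to 1.75). The means were 0.595 ± 0.189 in controls, 1.34 ± 0.07 after 65 Gy and 1.42 ± 0.29 after 75 Gy at 2 weeks (SD, n = 3 each). They were 0.390 ± 0.025 in controls (n = 3), 0.912 ± 0.029 after 65 Gy (n = 2) and 1.25 ± 0.23 after 75 Gy (n = 3) at 6 weeks. The ratio was above 1 in all libraries of 3 irradiated groups and below 1 in both libraries of 65 Gy at 6 weeks.

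On the same per-kilobase scale Il6st was the most abundant member in controls, with 44.5 ± 5.2 CPM per kb at 2 weeks and 39.7 ± 1.6 CPM per kb at 6 weeks (SD, n = 3). Socs3 and Lifr came next and Osmr after them, and at 2 weeks Socs3 and Lifr did not differ beyond their spread (15.6 ± 2.3 and 15.4 ± 2.4 CPM per kb). In every irradiated group Socs3 had the highest mean, from 28.4 to 41.2 CPM per kb, but its libraries overlapped those of Il6st in both 75 Gy groups. Lif went from the seventh to the fifth place in each irradiated group. Il6 was last or last but one in controls (0.277 ± 0.246 and 0.372 ± 0.120 CPM per kb), level with Il11 within their spread at 2 weeks. It was eighth in 3 irradiated groups and sixth after 75 Gy at 6 weeks (4.85 ± 1.65 CPM per kb), where it could not be separated from Lif, Osm and Il6ra. The lengths come from the GENCODE M21 annotation, and an unused long exon would lower a gene's value.

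**Figure D2:**
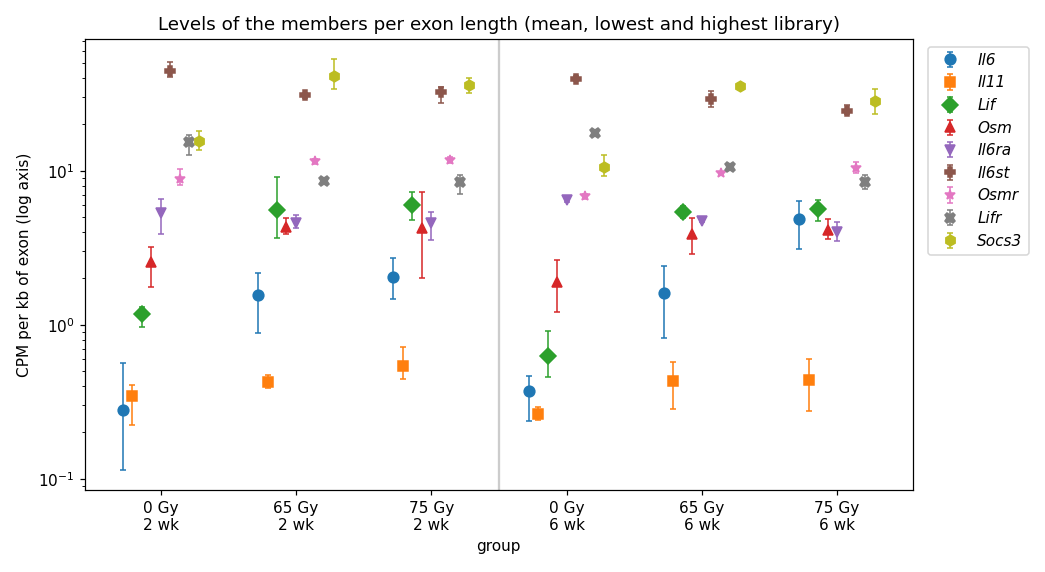
Mean level of each gene per kilobase of exon in each group (symbols), on a log axis in CPM per kb, with the lowest and highest library as bars. Il6st leads in the controls and Socs3 has the highest mean in the 4 irradiated groups, and Osmr and Lifr exchange places in 3 of the 4.

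Socs3, the feedback inhibitor, rose in all 4 comparisons. It stood at 52.4, 39.5 and 43.0 CPM in the 2-week controls and at 36.3, 26.7 and 29.3 CPM in the 6-week controls. It was at 153, 107 and 98.0 CPM after 65 Gy and 92.3, 105 and 116 CPM after 75 Gy at 2 weeks, and at 102 and 103 CPM after 65 Gy and 81.3, 67.6 and 97.7 CPM after 75 Gy at 6 weeks. Every irradiated library was above every control of either time. The log2 fold changes were 1.41 ± 0.18 and 1.22 ± 0.18 at 2 weeks and 1.73 ± 0.20 and 1.42 ± 0.18 at 6 weeks (65 then 75 Gy at each time) (edgeR adjusted p = 0.000211, 0.000323, 6.24e-05 and 6.18e-05), differences of 2.33-fold to 3.32-fold. The call was kept in all fits that left out a library, with log2 fold changes of 1.13 to 1.87.

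Calls required both an adjusted p of no more than 0.05 and a log2 fold change of at least 1 in either direction. After 75 Gy at 2 weeks 3 of 9 members were called higher (Il6, Lif and Socs3) and 0 lower, where 5.67% of all genes tested were called higher and 2.07% lower. After 75 Gy at 6 weeks 4 were called higher (Osm joining these) and 1 lower (Lifr), beside 7.28% and 3.13% of all genes. After 65 Gy 3 were called higher and 0 lower at each time, again Il6, Lif and Socs3, beside 3.47% higher and 0.88% lower at 2 weeks and 4.34% higher and 0.943% lower at 6 weeks. For each 0, the members with log2 fold changes below 0 and an unadjusted p under 0.05 were Il6st and Lifr at 2 weeks after either dose and those with Il6ra after 65 Gy at 6 weeks. DESeq2 called the same members as edgeR in all 4 comparisons.

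By adjusted p alone, 4 members passed as higher and 2 as lower after 75 Gy at 2 weeks, beside 11.8% and 10.5% of all genes. After 75 Gy at 6 weeks 5 were higher and 3 lower, beside 18% of all genes in each direction. After 65 Gy 4 were higher and 2 lower at each time, beside 6.7% and 4.29% of all genes at 2 weeks and 7.66% and 7.01% at 6 weeks. The median log2 fold change of the 9 members was 0.38 and 0.64 at 2 weeks and 0.71 and 0.74 at 6 weeks (65 then 75 Gy at each time), and the median of all genes tested lay between -0.01 and 0.04. Both doses were set against the same controls at each time, so their values are not independent of each other.

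**Figure D3:**
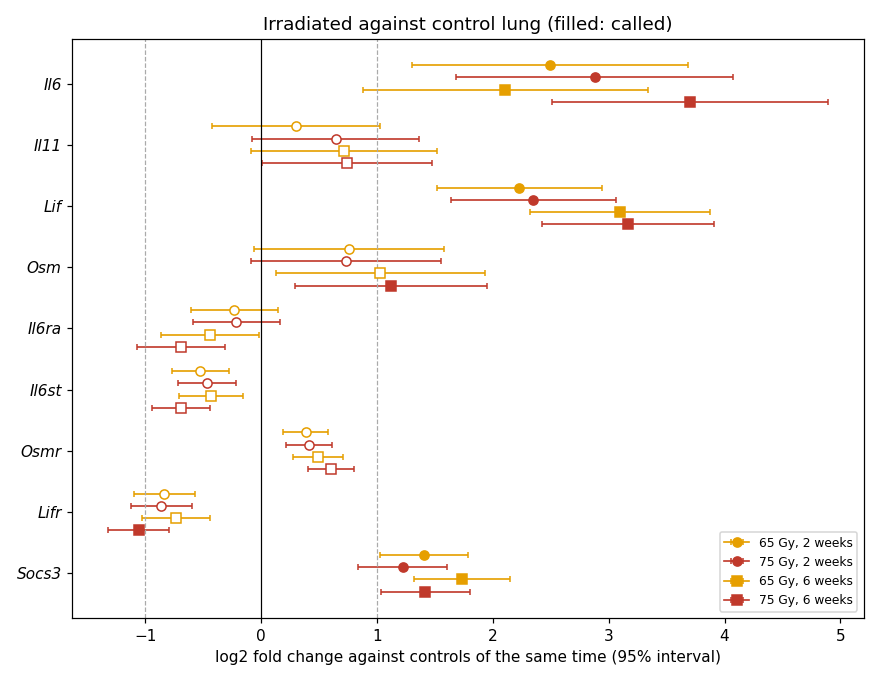
Log2 fold change of each gene against the controls of the same time, with its 95% interval, for 65 Gy (yellow) and 75 Gy (red) at 2 weeks (circles) and 6 weeks (squares), filled where called. The dashed lines mark a change of 1, and Il6, Lif and Socs3 are filled in all 4 comparisons, Osm and Lifr after 75 Gy at 6 weeks and Il11, Il6ra, Il6st and Osmr in none.

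The doses did not differ for any member by the same call. At 2 weeks, 0 of 9 members and 0% of all genes were called between 75 Gy and 65 Gy, with 0 members at an unadjusted p under 0.05 and 0 called by DESeq2. The intervals of the difference were widest for Il6 (log2 0.38, 95% interval -0.67 to 1.44) and narrowest for Osmr (0.03, -0.17 to 0.22). At 6 weeks, 0 of 9 members and again 0% of all genes were called by edgeR and 0 members by DESeq2, and 2 members had an unadjusted p under 0.05 by edgeR. Il6 was 3.01-fold higher after 75 Gy than after 65 Gy, with a log2 difference of 1.59 (0.36 to 2.82, edgeR adjusted p = 0.735), and all 3 libraries of 75 Gy were above both of 65 Gy. Lifr was lower by 0.32 on the log2 scale (-0.32, interval -0.61 to -0.03, edgeR adjusted p = 0.735), with every 75 Gy library below both of 65 Gy. The 65 Gy group had 2 libraries at this time, and the test across all genes did not settle differences of these sizes.

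The times did not differ for any member by the same call either. Between the controls of 6 and 2 weeks 0 of 9 members were called by edgeR or DESeq2, beside 0.576% of all genes. At an unadjusted p under 0.05, edgeR had 3 members lower at 6 weeks: Socs3 (log2 -0.55, adjusted p = 0.154), Lif (-0.90, adjusted p = 0.215) and Osmr (-0.37, adjusted p = 0.0607). The effect of 75 Gy at 6 weeks differed from its effect at 2 weeks in 0 of 9 members, beside 0.254% of all genes, and that of 65 Gy in 0 of 9, beside 0.0136%, with 0 members at an unadjusted p under 0.05 and 0 called by DESeq2 in both. For Il6 these differences of effect were 0.82 (95% interval -0.80 to 2.44) at 75 Gy and -0.39 (-2.10 to 1.32) at 65 Gy on the log2 scale, and for Lif 0.82 (-0.16 to 1.79) and 0.87 (-0.16 to 1.90). The intervals allow differences of more than 1 in these cytokines, while for Osmr and Il6st they lay within 0.58 of 0.

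Another 46 genes of the pathway were taken from lists of the remaining family cytokines and receptors, the JAK-STAT signalling proteins, other inhibitors and the shedding proteases, and genes known to be induced through gp130. Of these 43 were tested, Ctf2, Il31 and Fgb having too few counts. After 75 Gy 8 were called higher and 1 lower at 2 weeks, beside 5.67% and 2.07% of all genes. At 6 weeks it was again 8 and 1, beside 7.28% and 3.13%. After 65 Gy 5 were called higher and 0 lower at 2 weeks, beside 3.47% and 0.88% of all genes. At 6 weeks it was 8 higher and 0 lower, beside 4.34% and 0.943%. By adjusted p alone 8 were higher and 3 lower after 65 Gy at 2 weeks, beside 6.7% and 4.29% of all genes. At 6 weeks it was 11 and 4, beside 7.66% and 7.01%. After 75 Gy 17 were higher and 4 lower at 2 weeks, beside 11.8% and 10.5%. At 6 weeks it was 14 and 6, beside 18% in each direction. The 9 calls after 75 Gy at 2 weeks became 5 without library 3134, and the 5 after 65 Gy at 2 weeks became 3 without library 3129 and 8 without control library 3126.

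Most of the calls were among the 17 tested genes listed as induced through gp130. Of these, 5 and 5 were called higher at 2 weeks and 8 and 8 at 6 weeks (65 then 75 Gy at each time). Of all genes, 3.47% and 5.67% were called higher at 2 weeks and 4.34% and 7.28% at 6 weeks. Bcl3, Myc, Pim1, Cebpb, Cebpd, Mcl1, Hp, Il4ra and Batf, also on the list, were called in none of the 4 comparisons. Between the controls of 6 and 2 weeks 0 of the 17 were called, and their median log2 fold change was -0.55, beside 0.01 for all genes. The list was chosen with earlier results of these data known, and induction through gp130 in these lungs was not tested. Saa3, an acute phase protein made outside the liver, had a level of 0.236 to 1.42 CPM in controls, 31.1 to 131 CPM in irradiated lung at 2 weeks and 14.9 to 26.9 CPM at 6 weeks. Its log2 fold changes were 6.35 and 6.53 at 2 weeks and 5.90 and 6.24 at 6 weeks (65 then 75 Gy at each time). Lcn2, an iron-binding protein of innate defence, went from 79.2 to 176 CPM in controls to 602 to 992 CPM in irradiated lung, with log2 fold changes of 2.79 to 3.12. Lrg1, a secreted glycoprotein, and Timp1, an inhibitor of matrix metalloproteinases, were also called in all 4 comparisons, with log2 fold changes of 1.65 to 2.57 and 1.81 to 2.63.

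Of the fibrinogen genes, Fga was called in all 4 comparisons, with log2 fold changes of 2.84 and 2.19 at 2 weeks and 6.32 and 5.76 at 6 weeks (65 then 75 Gy at each time), from control levels of 0 to 0.365 CPM. Its 2-week levels were 1.24 to 1.94 CPM after 65 Gy and 0.280 to 1.69 CPM after 75 Gy. After 75 Gy, library 3132 (16 counts) overlapped the controls of 2 weeks, so this difference rests on few counts. Fgg was called at 6 weeks, with 5.55 after 65 Gy and 5.18 after 75 Gy, its level being 18.2 to 31.3 CPM against 0.178 to 0.908 CPM in controls. Junb, a subunit of AP-1, and Serpina3n, a protease inhibitor, were called at 6 weeks, with log2 fold changes of 1.29 and 1.21 after 65 Gy and 1.14 and 1.50 after 75 Gy. In the test of the effect at 6 weeks against that at 2 weeks, Fga, Junb and Serpina3n passed at neither dose, and Fgg passed at 75 Gy (edgeR adjusted p = 0.0194) and missed at 65 Gy (adjusted p = 0.0919). Summed CPM of the liver cell markers Alb, Apoa1 and Ttr was 0.551 to 1.40 in controls and at 6 weeks 0.802 to 1.07 after 65 Gy and 1.64 to 1.97 after 75 Gy. Fgg was at 19.5 and 31.3 CPM in the same 65 Gy libraries and at 18.2 to 20.8 CPM in those of 75 Gy.

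Outside that list the genes named here were called after 75 Gy. At 2 weeks Ebi3, a subunit shared by interleukin-27, had a log2 fold change of 1.11 and Socs1, an inhibitor of interferon and cytokine signalling, of 1.87. Both genes were highest in library 3134 (10.4 and 20.0 CPM), which was above the other 16 libraries in each. Cntfr, the gene of the ciliary neurotrophic factor receptor, was called lower, with -1.07 at 2 weeks and -1.06 at 6 weeks. Stat3 itself, the main transcription factor of the pathway, was not called in any comparison, with levels of 209 to 305 CPM over the 17 libraries.

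**Figure D4:**
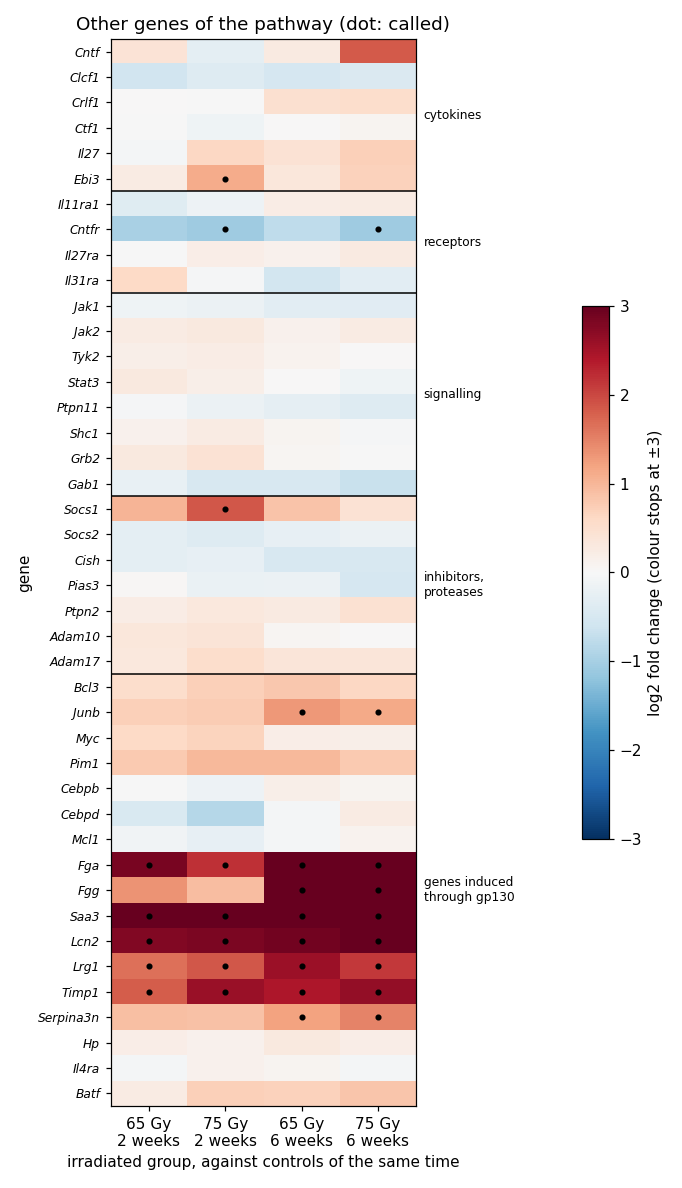
Log2 fold change of 42 other pathway genes (rows, grouped by role) in the 4 comparisons with controls (columns), with colour from blue (lower) to red (higher) stopping at ±3 and a dot where called. The dots lie mostly among the genes listed as induced through gp130, with Saa3, Lcn2, Lrg1, Timp1 and Fga in all 4 columns.

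The genes whose log2 CPM was most like that of each member over the 17 libraries were taken from the other genes with a mean log2 CPM of at least 1 (14482, or 14483 for Il11, which was itself below that level). The libraries share their groups, so such a likeness describes the group pattern and carries no test. For Lif the nearest were Klhdc8a (Pearson's r = 0.973), Mapk13 and Rab3il1, and for Socs3 they were Tgm1 (r = 0.962), Lif itself (r = 0.959) and Klhdc8a. For Il6 the nearest were Coq7 (r = 0.963), P2ry14 and Snhg15, and for Osm Gm15448 (r = 0.908), Ldah and Arl4c. Il11 had no gene above r = 0.838 (Brinp1, then G3bp2 and Serpinb8). For Il6st they were Vwf (r = 0.969), the gene of an endothelial protein, Fgd5 and Abca17, and for Lifr Marveld1 (r = 0.982), Irs1 and Rnf167. For Osmr they were Il33 (r = 0.961), the gene of an epithelial alarmin, Snx7 and Cdkn1a, a target of p53, and for Il6ra Unk (r = 0.955), Phf12 and Tet3.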

How the data were processed

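RNA-seq of total RNA from lung, taken from the lesions in irradiated mice (stranded mRNA libraries), gave 17 libraries in 6 groups. A further 65 Gy library of 6 weeks was not analysed here. The authors used Trimmomatic for trimming, HISAT2 for alignment (build GRCm38.p6) and StringTie for transcript assembly, and the deposited values are raw gene counts, whole numbers without normalization. How these were derived from StringTie is not given in the sources used here. In R 4.3.3, edgeR 4.0.16 fitted all libraries together, with filterByExpr (minimum count 10, minimum total 15), TMM factors, the quasi-likelihood F test and Benjamini-Hochberg adjustment over the 22052 genes kept. On simulated counts with 200 changed genes the script was tested first. CPM used TMM factors, and likeness used a prior count of 2. All 9 members are named, with the other pathway genes called in at least 1 of the 4 comparisons with controls and the 3 genes most like each member, except 1 gene that is not reported here. Members and lists were chosen with earlier results of these data known. The alternatives were DESeq2 1.42.0, RLE and upper-quartile factors, no filter except 1 count, only the groups compared, adjusted p alone and leaving out each library.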

Additional observations from a re-analysis of the deposited data

Results flagged for a closer look

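The effect of 75 Gy on Fgg, the fibrinogen gamma chain gene and one of the genes listed as induced through gp130, was larger at 6 weeks than at 2 weeks by 4.25 on the log2 scale in a test of the difference itself (edgeR's quasi-likelihood test, adjusted p = 0.0194). Its level was 2.98 to 4.17 CPM after 75 Gy and 0.667 to 3.59 CPM in controls at 2 weeks, and 18.2 to 20.8 CPM and 0.178 to 0.908 CPM at 6 weeks. No difference of this kind passed the test for the 9 IL-6 family members, and groups of 2 or 3 libraries were too small for a search for single outlying libraries.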

How the results depend on the processing

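No member changed the sign of its difference from controls under DESeq2, RLE or upper-quartile factors, another filter, a fit of only the groups compared, or the omission of any library. Of 792 recomputed member differences 781 stayed on their side of the call, 9 lost it and 2 gained it, all 11 by leaving out 1 library, as given for Il6, Osm and Lifr above. With adjusted p alone, 6 members were called in each comparison except 75 Gy at 6 weeks, where 8 were. The other pathway genes called numbered 11 (65 Gy) and 21 (75 Gy) at 2 weeks and 15 and 20 at 6 weeks. Of all genes, 6.7% passed as higher and 4.29% as lower after 65 Gy at 2 weeks, and 11.8% and 10.5% after 75 Gy. At 6 weeks the shares were 7.66% and 7.01% after 65 Gy and 18% in each direction after 75 Gy. With only the groups compared, 4 other pathway genes were called after 75 Gy at 2 weeks. Leaving out 1 library gave 3 to 5 members after 75 Gy at 6 weeks (3 without library 3143), 3 to 8 other pathway genes after 65 Gy at 2 weeks (3 without 3129 and 8 without control 3126) and 5 to 12 after 75 Gy at 2 weeks (5 without 3134). Without library 3140 the 65 Gy group of 6 weeks is 1 library, assumed to vary like the others. The cause of these changes was not tested. No paired analysis was possible because no library number is shared between groups. Il11 and the control levels of Il6 rest on few counts, which limits their precision.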
